A study of Mus musculus with 8 samples.

Results

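The genes of cholesterol and lipid synthesis comprised 28 genes, chosen by name with earlier results of these data known. They covered enzymes of the mevalonate and sterol pathway, and the SREBP transcription factors with the proteins that control them. A sterol carrier and 4 genes of fatty acid synthesis and desaturation were also included. All probes paired with these symbols were taken. Of the 28 genes, 27 had at least 1 probe, out of 18322 genes with a symbol on the array, and Acat2 was not analysed here. The 27 genes had 55 probes, and each gene was read through its brightest probe, by mean intensity on the 8 arrays. All 27 of these probes were above the empty control spots in both channels on all 8 arrays, and no filter on dim probes was applied.

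Cholesterol is built from acetyl-CoA through mevalonate, isoprenoid units, squalene and lanosterol, and then through a series of oxidation and reduction steps in the endoplasmic reticulum. The genes of this route are controlled together by the membrane-bound SREBP factors, which the escort protein SCAP carries to the Golgi for cleavage when sterols are low, and which the INSIG proteins hold back in the endoplasmic reticulum when sterols are high. SREBP-2 acts mainly on sterol genes and SREBP-1c mainly on fatty acid genes, often together with NF-Y bound at a CCAAT box. The embryonic brain makes most of its own cholesterol once the blood-brain barrier forms, and dividing progenitors and growing axons both need membrane lipid.

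The samples were sorted cells of the cortex of C57/BL6 mouse embryos. Per the labels, siRNA and an expression vector for GFP, each at 1 ug per ul, were electroporated from 1 lateral ventricle in utero at E14.5 (the design text; the protocol gives E14), and the cortices were dissociated and sorted at E16.5, where E counts embryonic days. There were 4 pools with siFoxO6-2 and 4 with siFoxO6-3, siRNAs that target different sites of Foxo6, a FoxO transcription factor. The reference on all 8 two-colour arrays was a single pool that had received a scrambled siRNA with the same GFP vector. The 4 pools per siRNA are described as independent, and each joined several cortices. Both siRNAs are shown because they separate the groups compared below. They target the same gene, on chromosome 4, and the longest run of letters they share is 5 bases. Each is 21 bases long, and n marks the 2 bases that the labels leave unspecified.
siFoxO6-2: nnacaugccagugacgacuac
siFoxO6-3: nnccaucagccuuaugacgcu

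Array quality was uneven. The median siRNA-channel signal ran from 58.0 on siFoxO6-3 replicate 4 to 123 on siFoxO6-2 replicate 4. Across all genes siFoxO6-2 replicate 3, siFoxO6-3 replicate 3 and siFoxO6-3 replicate 4 were least like the other arrays, with median correlations of 0.26, 0.28 and 0.14. Foxo6 was below the scrambled pool on 8 of 8 arrays, at -0.40 to -1.30 (log2) with siFoxO6-2 and at -1.21 to -2.31 with siFoxO6-3. Over both siRNAs it fell to 0.406 of the scrambled level (limma adjusted p = 0.00134), and with each array centred on its median in place of loess it was at -0.69 (limma adjusted p = 0.0672). Markers of cortical neurons (8 of 8 measured) and of radial glia (9 of 9 measured) were above the empty spots on all arrays, as were 8 of 10 markers of microglia. In sorted pools, fewer cells of a type and less RNA per cell cannot be told apart.

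With both siRNAs pooled in the test, 8 of the 27 lipid genes fell and 2 rose against the scrambled pool. The falls were Idi1, Fdps, Dhcr7, Srebf1, Srebf2, Stard4, Fasn and Scd1, and the rises were Insig1 and Insig2, the genes of the proteins that retain SREBP. Of all 25310 genes and unnamed probes tested, 13.3% were called, 6.72% higher and 6.59% lower, against 37.0% of the lipid genes. The 2 shares are not of like sets. The lipid genes were chosen with earlier results known, and 16 of 27 lay in the brightest 25% of named genes. The 13.3% includes dim and unnamed probes. A gene was called when its limma adjusted p was under 0.05 (two-sided, Benjamini-Hochberg over all genes). The median over the 27 genes was -0.07 on the log2 scale, beside 0.00 over all genes. The spread of the reference itself is not in these p-values, because only 1 scrambled pool existed. When the reference was given the variance of 1 array, limma called 0 of the 27 genes, with 1 at an unadjusted p under 0.05. This setting widens the SE of every gene by its construction, and Foxo6 itself was no longer called.

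**Figure D1:**
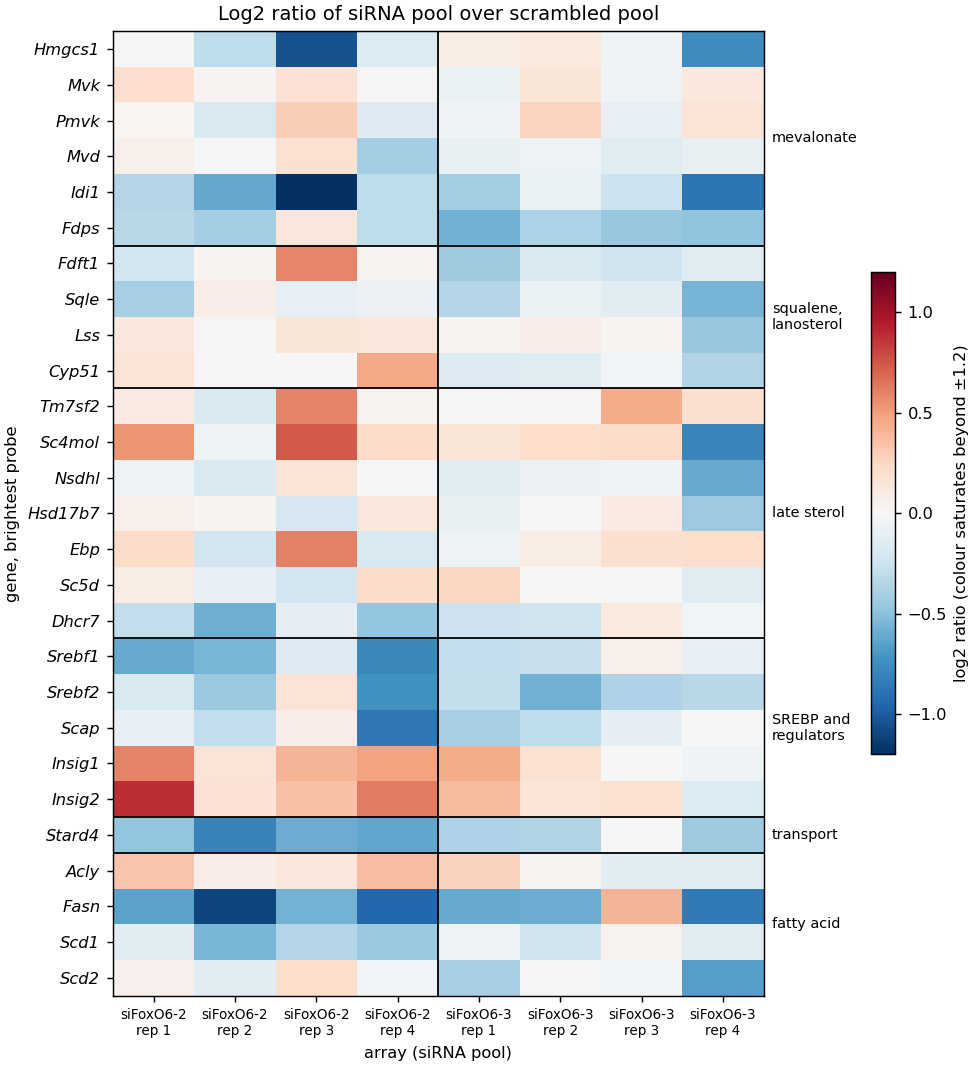
Log2 ratio of the siRNA pool over the scrambled pool for the 27 measured lipid genes (rows, grouped by role) on the 8 arrays (columns); blue is lower and red higher than scrambled. Idi1 was below 0 on 8 of 8 arrays, while siFoxO6-2 replicate 3 held the highest value of 12 genes and siFoxO6-3 replicate 4 the lowest value of 9.

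The mevalonate steps held 2 falls among 6 measured genes, Idi1 and Fdps, which act one after the other. Idi1 encodes isopentenyl-diphosphate isomerase, which interconverts the isoprenoid units. In replicates 1 to 4 its log2 ratios were -0.35, -0.62, -1.51 and -0.31 with siFoxO6-2, and -0.42, -0.08, -0.26 and -0.87 with siFoxO6-3. All 8 values were below 0 and the siRNA groups overlapped, with siFoxO6-2 replicate 3 far below the rest. Over both siRNAs Idi1 was at 0.682 of the scrambled level (log2 -0.55, SE 0.15, n = 8 arrays, limma adjusted p = 0.0481). This call was the least firm of the 10: it was lost when any 1 of 7 arrays (all but siFoxO6-2 replicate 3) was left out, with estimates from -0.64 to -0.44, and in the authors' deposited table (-0.51, limma adjusted p = 0.0875).

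Fdps, the farnesyl diphosphate synthase at the branch between sterols and protein prenylation, was at -0.33, -0.41, 0.14 and -0.30 with siFoxO6-2. With siFoxO6-3 it was at -0.58, -0.38, -0.46 and -0.48. Only siFoxO6-2 replicate 3 was above 0, and the siFoxO6-3 values were tight (-0.47 ± 0.08, SD, n = 4). The fall over both siRNAs was to 0.785 of the scrambled level (log2 -0.35, SE 0.06, limma adjusted p = 0.0127) and was still called when any 1 of the 8 arrays was left out.

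The other 4 mevalonate genes did not pass the test. Hmgcs1, the cytosolic HMG-CoA synthase, ran from -1.05 to 0.12 over the arrays, with the 2 lowest values on siFoxO6-2 replicate 3 and siFoxO6-3 replicate 4, and was at -0.27 over both siRNAs (limma adjusted p = 0.273). The kinases Mvk and Pmvk were at 0.07 and 0.04, and the decarboxylase Mvd at -0.07. The promoters of Hmgcs1 and Idi1 are shown because the former held the only sterol regulatory element core found among the members and the latter belongs to a called fall. Capitals mark that core (TCACNCCAC) in the Hmgcs1 stretch, and CCAAT boxes, or ATTGG on the other strand, in the Idi1 window, which runs from 250 bases before to 50 after the annotated start. Sequences are from RefSeq.
Hmgcs1 promoter, GRCm38.p6 chr13:119690194-119690242, plus strand: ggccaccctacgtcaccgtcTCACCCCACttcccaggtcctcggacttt
Idi1 promoter, GRCm38.p6 chr13:8885356-8885655, plus strand: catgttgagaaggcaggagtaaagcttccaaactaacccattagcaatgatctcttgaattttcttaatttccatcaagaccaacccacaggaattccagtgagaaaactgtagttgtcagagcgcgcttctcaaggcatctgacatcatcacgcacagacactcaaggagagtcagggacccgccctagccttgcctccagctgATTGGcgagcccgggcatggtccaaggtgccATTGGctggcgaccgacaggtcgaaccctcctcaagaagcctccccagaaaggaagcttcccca

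None of the 4 genes from squalene to lanosterol was called by limma with both siRNAs, and 1 (Sqle) had an unadjusted p under 0.05. Fdft1, squalene synthase, was at -0.23, 0.03, 0.59 and 0.03 with siFoxO6-2, and at -0.43, -0.19, -0.24 and -0.15 with siFoxO6-3. All siFoxO6-3 values were below 0, whereas the siFoxO6-2 values lay on both sides, and the groups overlapped. Over both siRNAs Fdft1 was at -0.07 (SE 0.09, limma adjusted p = 0.66). Without siFoxO6-2 replicate 3 it was called, at -0.17 (limma adjusted p = 0.0144). Sqle, the squalene epoxidase that makes a rate-limiting oxidation, was lower on 7 of 8 arrays and at -0.20 over both siRNAs (limma adjusted p = 0.105). Lss, which closes the sterol rings, was at 0.01, and Cyp51, the lanosterol demethylase, at -0.01.

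Of the 7 genes of the late sterol steps, Dhcr7 fell and 6 were not called. Dhcr7 encodes the reductase of the last step to cholesterol. Its values were -0.30, -0.59, -0.11 and -0.46 with siFoxO6-2, and -0.25, -0.24, 0.12 and -0.03 with siFoxO6-3. It was thus lower on all siFoxO6-2 arrays and close to the reference on siFoxO6-3 replicates 3 and 4. Over both siRNAs it was at 0.851 of the scrambled level (log2 -0.23, SE 0.05, limma adjusted p = 0.0331). The call was lost when any 1 of 6 arrays (siFoxO6-2 replicates 1, 2 and 4, siFoxO6-3 replicates 1, 2 and 3) was left out, with estimates from -0.26 to -0.18.

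Sc4mol, now named Msmo1, encodes the sterol C4-methyl oxidase. It was at 0.53, -0.06, 0.74 and 0.22 with siFoxO6-2, and at 0.15, 0.21, 0.23 and -0.79 with siFoxO6-3. A single array, siFoxO6-3 replicate 4, lay far below the others. Over both siRNAs Sc4mol was at 0.15 (SE 0.10, limma adjusted p = 0.394). The remaining late genes were within 0.15 of the reference over both siRNAs: the reductase Tm7sf2 at 0.15, the isomerase Ebp at 0.11, the desaturase Sc5d at 0.01, the ketoreductase Hsd17b7 at -0.05 and the dehydrogenase Nsdhl at -0.12, with limma adjusted p from 0.243 to 0.936.

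Among the SREBP factors and their regulators, 4 of 5 genes were called, those of both factors lower and those of both retention proteins higher. The arrays measured RNA and not protein. Srebf1, which encodes SREBP-1, was at -0.61, -0.55, -0.15 and -0.77 with siFoxO6-2, and at -0.30, -0.27, 0.06 and -0.10 with siFoxO6-3. It was lower on 7 of 8 arrays and at 0.792 of the scrambled level (log2 -0.34, SE 0.07, limma adjusted p = 0.0192). Srebf2, which encodes SREBP-2, was at -0.18, -0.44, 0.16 and -0.72 with siFoxO6-2, and at -0.29, -0.57, -0.37 and -0.33 with siFoxO6-3. It too was lower on 7 of 8 arrays, with siFoxO6-2 replicate 3 above 0, and was at 0.788 of the scrambled level (log2 -0.34, SE 0.07, limma adjusted p = 0.0179). Leaving out 1 array ended the call of Srebf1 in 4 cases (siFoxO6-2 replicates 1 and 4, siFoxO6-3 replicates 1 and 2, -0.33 to -0.29) and that of Srebf2 in 4 (siFoxO6-2 replicate 1, siFoxO6-3 replicates 1, 2 and 3, -0.34 to -0.31).

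Insig1 was at 0.60, 0.15, 0.40 and 0.48 with siFoxO6-2, and at 0.44, 0.18, 0.01 and -0.06 with siFoxO6-3. Insig2 was at 0.88, 0.18, 0.35 and 0.62 with siFoxO6-2, and at 0.38, 0.15, 0.18 and -0.16 with siFoxO6-3. Both were higher on 7 of 8 arrays, the exception being siFoxO6-3 replicate 4. Insig1 rose 1.21-fold (log2 0.28, SE 0.06, limma adjusted p = 0.0284) and Insig2 rose 1.25-fold (log2 0.32, SE 0.08, limma adjusted p = 0.0337). Leaving out any 1 of 4 arrays (siFoxO6-2 replicates 1 and 4, siFoxO6-3 replicates 1 and 2) ended the Insig1 call, at 0.23 to 0.26. Leaving out any of those 4 or siFoxO6-3 replicate 3 ended the Insig2 call, at 0.27 to 0.34. Scap, the SREBP escort, was at -0.25 over both siRNAs and lower on 7 of 8 arrays (limma adjusted p = 0.131), with siFoxO6-2 replicate 4 lowest at -0.85. The promoters of both retention genes are shown as those of the called rises, with CCAAT boxes, or ATTGG on the other strand, in capitals. For Insig2 the window of start 1 of 3 annotated starts is shown, and the other starts hold no CCAAT box.
Insig1 promoter, GRCm38.p6 chr5:28071162-28071461, plus strand: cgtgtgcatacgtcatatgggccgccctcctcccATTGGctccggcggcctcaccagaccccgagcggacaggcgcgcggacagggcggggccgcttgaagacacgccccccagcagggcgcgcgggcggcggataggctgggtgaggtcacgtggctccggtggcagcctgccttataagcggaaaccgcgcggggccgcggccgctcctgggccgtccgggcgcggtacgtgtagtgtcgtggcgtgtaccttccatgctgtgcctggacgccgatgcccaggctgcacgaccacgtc
Insig2 promoter, GRCm38.p6 chr1:121332540-121332839, minus strand: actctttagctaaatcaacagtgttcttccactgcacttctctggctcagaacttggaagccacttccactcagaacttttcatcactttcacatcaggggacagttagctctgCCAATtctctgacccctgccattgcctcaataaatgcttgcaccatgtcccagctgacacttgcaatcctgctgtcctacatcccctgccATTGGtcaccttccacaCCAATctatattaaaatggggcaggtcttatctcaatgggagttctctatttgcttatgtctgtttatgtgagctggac

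Stard4, which carries sterol between membranes, was the member with the smallest p. It was at -0.48, -0.80, -0.59 and -0.62 with siFoxO6-2, and at -0.37, -0.36, 0.00 and -0.43 with siFoxO6-3. The siRNA groups did not overlap, every siFoxO6-2 pool being below every siFoxO6-3 pool, and siFoxO6-3 replicate 3 lay at the reference. Over both siRNAs Stard4 was at 0.729 of the scrambled level (log2 -0.46, SE 0.05, limma adjusted p = 0.00262), and it was still called when any 1 of the 8 arrays was left out.

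Of the 4 fatty acid genes, Fasn and Scd1 fell. Fasn encodes fatty acid synthase. It was at -0.64, -1.10, -0.57 and -0.94 with siFoxO6-2, and at -0.60, -0.59, 0.40 and -0.85 with siFoxO6-3. The array siFoxO6-3 replicate 3 was the single value above 0. At 0.654 of the scrambled level (log2 -0.61, SE 0.10, limma adjusted p = 0.0107), Fasn had the largest fall among the members. Scd1, a stearoyl-CoA desaturase, was at -0.12, -0.55, -0.35 and -0.45 with siFoxO6-2, and at -0.06, -0.24, 0.04 and -0.14 with siFoxO6-3. These falls were small on most siFoxO6-3 arrays, and Scd1 was at 0.85 of the scrambled level over both siRNAs (log2 -0.23, SE 0.04, limma adjusted p = 0.00814). Both genes were still called when any 1 of the 8 arrays was left out.

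Scd2, the desaturase that predominates in developing mouse brain, was at 0.05, -0.13, 0.21 and -0.03 with siFoxO6-2, and at -0.40, -0.02, -0.03 and -0.66 with siFoxO6-3. The groups overlapped, and 2 siFoxO6-3 arrays (replicates 1 and 4) were lower than all others. Over both siRNAs Scd2 was at -0.13 (SE 0.07, limma adjusted p = 0.33). Acly, which supplies cytosolic acetyl-CoA, was at 0.12 (limma adjusted p = 0.236), with 6 of 8 arrays above 0. The Fasn promoter is shown as that of the largest fall, with CCAAT boxes in capitals. Its window holds 3 of them, and 2 overlap on opposite strands.
Fasn promoter, GRCm38.p6 chr11:120824498-120824797, minus strand: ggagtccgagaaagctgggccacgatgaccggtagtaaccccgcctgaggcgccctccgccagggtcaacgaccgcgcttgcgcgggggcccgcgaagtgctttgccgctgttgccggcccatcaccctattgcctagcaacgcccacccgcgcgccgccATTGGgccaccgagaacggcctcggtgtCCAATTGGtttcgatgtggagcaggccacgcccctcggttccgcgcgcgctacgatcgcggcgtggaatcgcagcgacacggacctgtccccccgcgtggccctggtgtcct

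**Figure D2:**
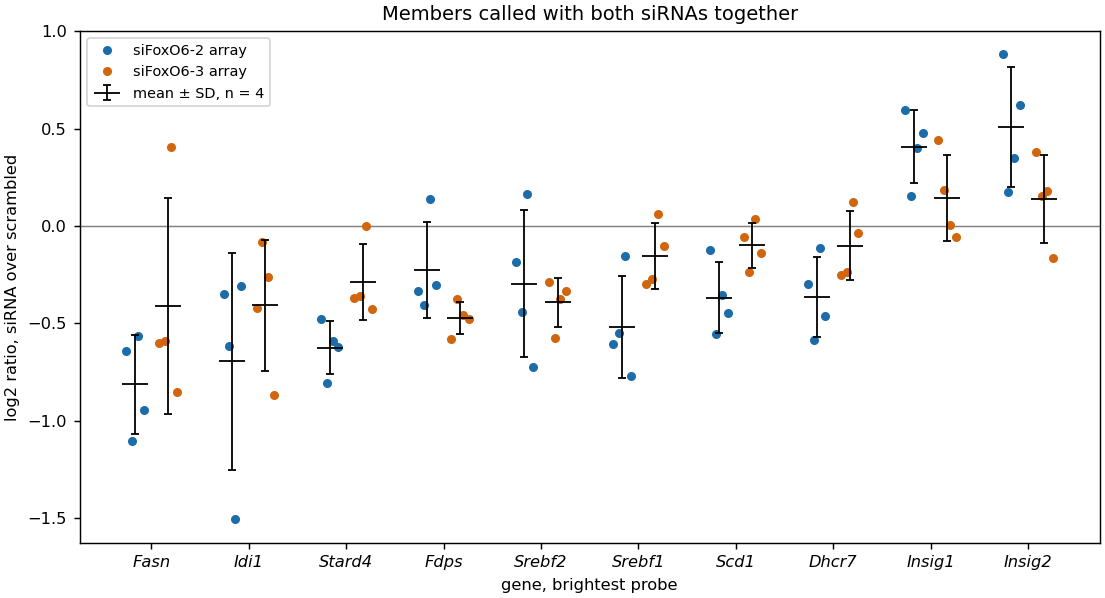
Log2 ratio of siRNA over scrambled on each array (points) for the 10 lipid genes called with both siRNAs together, with the mean and SD of the 4 arrays of each siRNA (black). Fdps and Srebf2 were lower in the mean with siFoxO6-3 than with siFoxO6-2, whereas the other 8 were nearer 0 with siFoxO6-3.

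The siRNAs were also taken singly. With siFoxO6-2, 7 of the 27 genes were called: Insig1 and Insig2 rose, and Dhcr7, Srebf1, Stard4, Fasn and Scd1 fell, while 8.79% of all genes were called (4.3% higher, 4.48% lower). The largest of these falls was Fasn, at -0.81 ± 0.25 (SD, n = 4, limma adjusted p = 0.0183), to 0.569 of the scrambled level. Stard4 was at -0.62 ± 0.14 (limma adjusted p = 0.00511), Srebf1 at -0.52 ± 0.26 (limma adjusted p = 0.0197) and Insig2 at 0.51 ± 0.31 (limma adjusted p = 0.0318). Stard4 alone was called in every fit that left out 1 array. The calls of Srebf1 and Fasn were lost without siFoxO6-2 replicates 1, 2 or 4 (-0.54 to -0.45 and -0.87 to -0.78), and that of Scd1 without replicate 4 (-0.38). Dhcr7 and Insig1 lost theirs without siFoxO6-2 replicates 1, 2 or 4 or siFoxO6-3 replicate 2 (-0.37 to -0.32 and 0.35 to 0.48), and Insig2 also without siFoxO6-3 replicate 3 (0.41 to 0.59). Without siFoxO6-2 replicate 3 the count was 9, with Fdps (-0.36) and Srebf2 (-0.41) added.

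With siFoxO6-3, limma called 0 of the 27 genes, and 7 had an unadjusted p under 0.05; among all genes 0.901% were called (0.423% higher, 0.478% lower). The smallest adjusted p was that of Fdps, at -0.47 ± 0.08 (limma adjusted p = 0.0604). Stard4 was at -0.29 ± 0.20 (limma adjusted p = 0.0952), Srebf2 at -0.39 ± 0.13 (limma adjusted p = 0.109), Fasn at -0.41 ± 0.56 (limma adjusted p = 0.237) and Scd2 at -0.28 ± 0.31 (limma adjusted p = 0.275). Leaving out 1 array gave 0 calls in 7 of the 8 fits. Without siFoxO6-2 replicate 3, which enters through the shared spread and dye term, Fdps (-0.47), Fdft1 (-0.25) and Srebf2 (-0.39) were called. Without the 3 arrays least like the others, an alternative added after the data were seen, 5 were called: Fdps (-0.48), Fdft1 (-0.31), Srebf2 (-0.43), Stard4 (-0.36) and Fasn (-0.60). The same exclusion gave 14 calls with both siRNAs, 3 higher and 11 lower, including all 10 of the calls above. Over all 25310 genes and unnamed probes the calls with both siRNAs also rose, from 3367 to 6287. The gain was thus not particular to the lipid genes. The count over all genes with siFoxO6-3 under this exclusion is not given here.

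The difference between the siRNAs, in which the shared reference cancels, was tested directly. Limma called 0 of the 27 genes, with 6 at an unadjusted p under 0.05, and 0.00395% of all genes, which is 1 gene (Sufu, no member). The largest differences, siFoxO6-3 minus siFoxO6-2, were those of Sc4mol (-0.41, 95% interval -0.88 to 0.06) and Fasn (0.40, -0.07 to 0.88). Insig2 (-0.37, -0.73 to -0.01), Srebf1 (0.37, 0.06 to 0.68), Fdft1 (-0.36, -0.76 to 0.04) and Stard4 (0.33, 0.12 to 0.55) followed. The smallest limma adjusted p of a difference was 0.405, for Scd1 (0.27, 0.10 to 0.44). The groups did not overlap for 2 members, Stard4 and Cyp51, and neither difference was called by limma. The share of all genes with such groups is not given here. Cyp51 was at 0.17, -0.01, -0.01 and 0.45 with siFoxO6-2, and at -0.16, -0.15, -0.04 and -0.36 with siFoxO6-3, a difference of -0.33 (-0.62 to -0.04, limma adjusted p = 0.62). On the other probes of Cyp51 the groups overlapped. Its second probe ran from 0.36 to 0.90 with siFoxO6-2 and from -0.27 to 0.54 with siFoxO6-3. The intervals of the members were 0.33 to 1.36 wide on the log2 scale.

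The calls depended on how the arrays were scaled. Loess within each array sets genes of every brightness to a median near 0, whereas centring each array on its median does not. With median centring the median log2 ratio of named genes was higher the brighter the genes, from -0.20 in the dimmest 25% through 0.08 and 0.34 to 0.56 in the brightest, and the median of all genes was 0.11. Over all genes limma then called 459 higher and 14 lower, instead of 1700 and 1667. The lipid genes were bright: 16 of 27 lay in the brightest 25% and 8 in the next. Their median became 0.44, limma called 0 of 27 with both siRNAs (13 at an unadjusted p under 0.05), and 2 of the 8 falls stayed below 0, Stard4 at -0.25 and Scd1 at -0.00. Srebf1 (0.04), Fasn (0.11), Fdps (0.15), Srebf2 (0.24), Idi1 (0.25) and Dhcr7 (0.27) were above 0. Srebf1 was the further gene below the 0.11 of all genes, while Insig1 (0.45) and Insig2 (0.90) were above it. The authors' deposited table gave values close to those of loess, with 9 of the 10 calls.

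**Figure D3:**
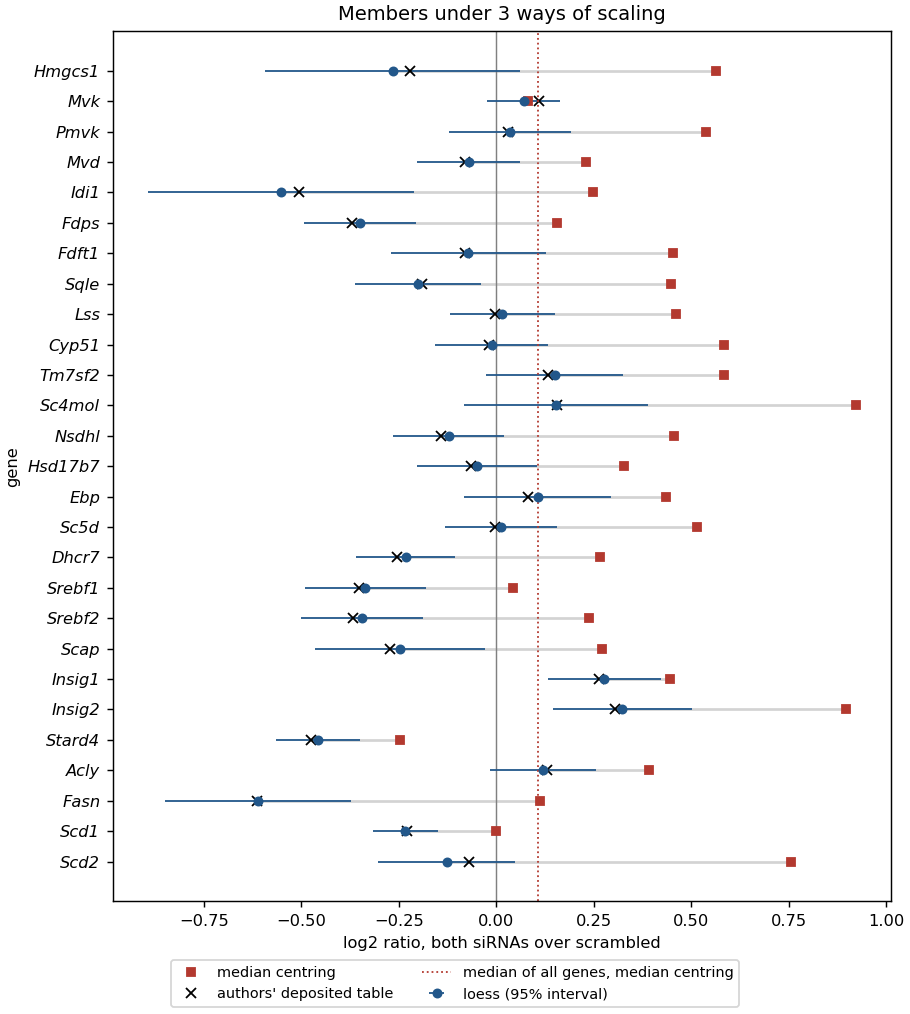
Log2 ratio of both siRNAs over scrambled for each lipid gene with loess (circles, 95% interval), median centring (squares) and in the authors' deposited table (crosses); the dotted line is the median of all genes with median centring. The squares lie to the right of the circles for all 27 genes, while crosses and circles nearly coincide.

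Different probes of a gene did not always give the same value, and levels of different probes were not compared. Of the 27 genes, 8 had 1 probe, 13 had 2 and 6 had 3 or more. The second probes of Fasn (-0.28, limma adjusted p over probes = 0.0211) and Insig2 (0.21, limma adjusted p over probes = 0.0384) were called in the direction of the first. Those of Insig1 (0.02), Dhcr7 (-0.04), Fdps (-0.02), the 3 of Srebf2 (0.11, -0.07 and -0.06), the 2 of Stard4 (-0.04 and -0.02) and that of Idi1 (0.15) were not called. The Fdps, Dhcr7 and Srebf2 probes were above the empty spots on all arrays, whereas those of Insig1, Stard4 and Idi1 were below them in the reference channel of 3 or 4 arrays. Srebf1 and Scd1 had 1 probe each. Among the genes whose brightest probe was not called, another probe of Nsdhl was higher (0.16, limma adjusted p over probes = 0.0335) and another of Hsd17b7 lower (-0.19, limma adjusted p over probes = 0.049). With the mean of all probes per gene, Idi1 (-0.20), Dhcr7 (-0.14) and Srebf2 (-0.09) were no longer called.

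**Figure D4:**
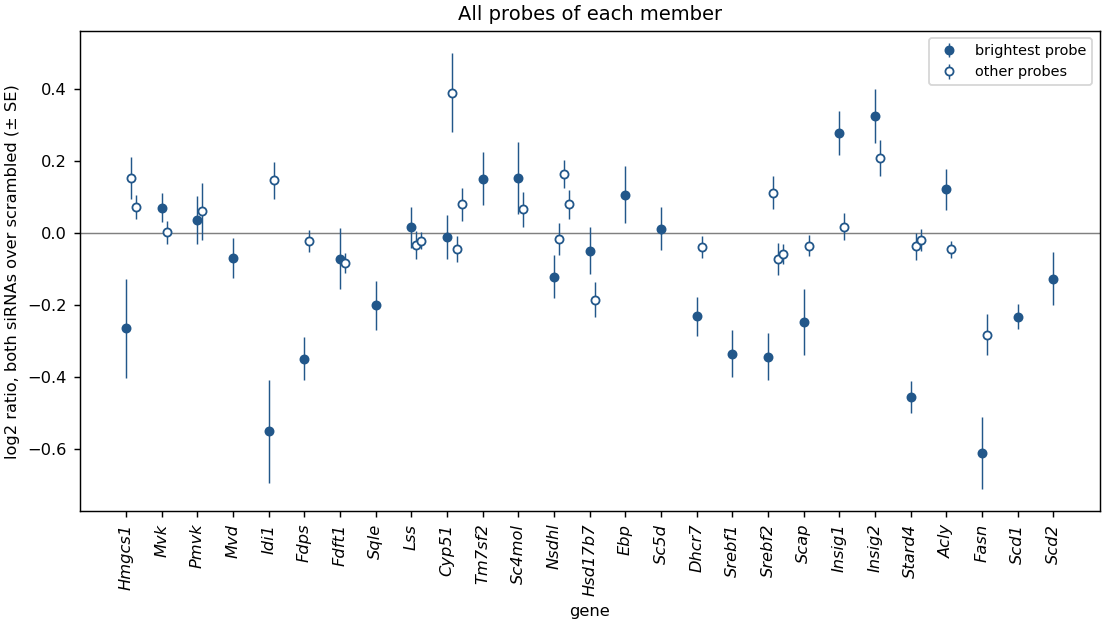
Log2 ratio of both siRNAs over scrambled, with SE, for all 55 probes of the lipid genes; filled circles are the brightest probes and open circles the others. Fasn and Insig2 are the called genes whose second probe was called in the same direction, and for Fdps, Dhcr7, Srebf2, Stard4, Insig1 and Idi1 the other probes lie near 0 or on its other side.

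The promoters were searched for 4 motifs on both strands, as a description. RefSeq promoter windows of 300 bases (GRCm38.p6) were matched for 21 of the 27 genes, with 29 annotated starts. The CCAAT box, which NF-Y binds, lay in the window of 20 of 21 genes (95.2%), beside 41.1% of all 27025 genes with a window. Counted per start, it was in 72.4% of the 29 windows and in 37.4% of all 32851. It was present in genes that fell (Idi1, Dhcr7, Srebf1, Srebf2, Fasn), in genes that rose (Insig1, Insig2) and in genes that were not called, and Scap was the gene without it. Fdps, Stard4 and Scd1, which fell, were not searched. The E-box CACGTG was in 5 of 21 genes (23.8%, against 8.09% of all genes): Dhcr7, Hsd17b7, Insig1, Sc5d and Scap. The sterol regulatory element core TCACNCCAC was in 1, Hmgcs1 (4.76%, against 1.44%), and the FoxO motif GTAAACA in 0 of 21, against 4.05% of all genes. A match does not show binding, and other spellings of these elements were not searched.

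**Figure D5:**
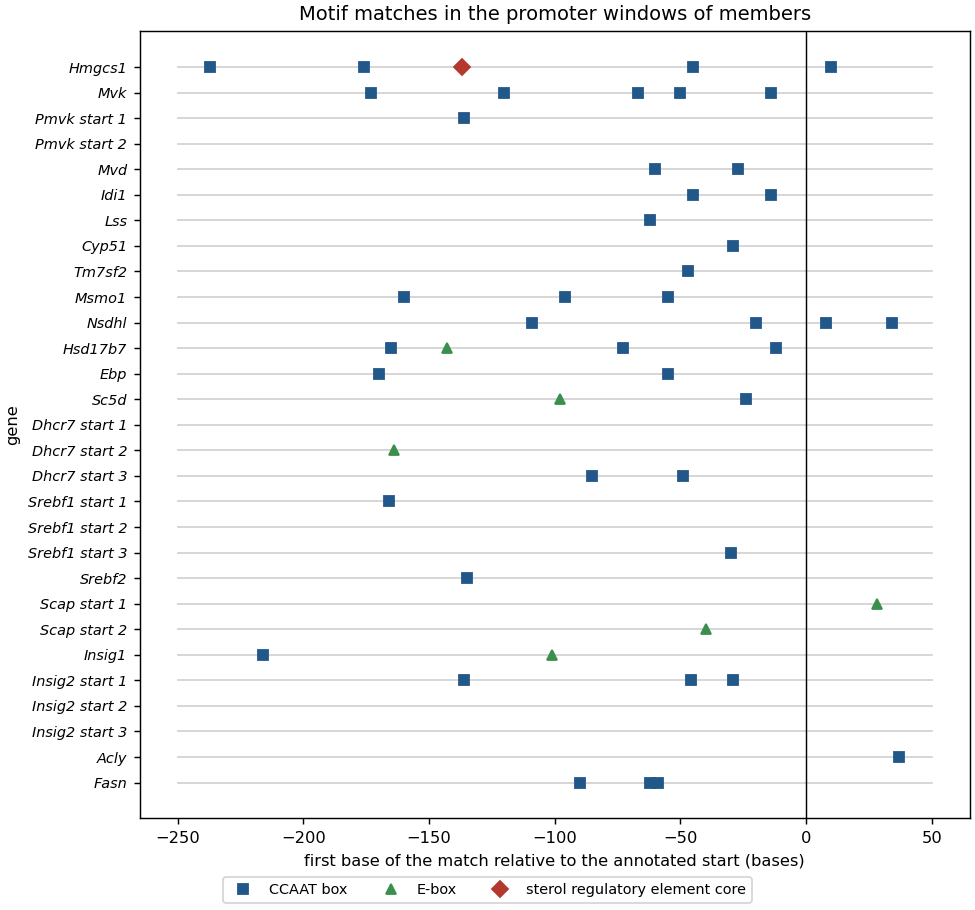
Position of motif matches relative to the annotated start in the 29 promoter windows of 21 lipid genes; squares are CCAAT boxes, triangles E-boxes and the diamond the sterol regulatory element core of Hmgcs1. Scap and 1 or more starts of Pmvk, Dhcr7, Srebf1 and Insig2 hold no square.

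Other genes of these pathways, in lists chosen with earlier results known, were called in both directions with both siRNAs, and their counts stand beside the 13.3% called over all genes. Of 29 further fatty acid genes, 5 rose and 2 fell, and the log2 ratios of the list ran from -0.70 to 0.64. The 3 with the smallest p were the elongation dehydratases Ptpla (now Hacd1, 0.64, SE 0.05, limma adjusted p = 0.00152) and Ptplb (now Hacd2, 0.41, SE 0.04, limma adjusted p = 0.00288), and the desaturase Fads1 (0.33, SE 0.04, limma adjusted p = 0.00558). Ptpla was higher on 8 of 8 arrays and also rose with siFoxO6-3 alone (0.57, limma adjusted p = 0.0261). Of 24 genes of sterol uptake, trafficking and efflux, 4 rose and 3 fell: the exporter Abcg1 (0.31, limma adjusted p = 0.00271) and the esterifying enzyme Soat1 (0.27, limma adjusted p = 0.0115) rose, and the lipoprotein receptor Vldlr (-0.30, limma adjusted p = 0.019) fell. With median centring, 2 of the 29 and 2 of the 24 genes were called, the former being Ptpla (1.17) and Ptplb (0.74). The latter did not include Abcg1 (0.70, limma adjusted p = 0.0574) or Soat1 (0.57, limma adjusted p = 0.0639). Nor did they include Vldlr, which was then above 0 (0.16, limma adjusted p = 0.46).

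Of 11 genes of SREBP processing and sterol-regulated degradation, 3 rose and 2 fell, with the ubiquitin ligases Rnf139 at 0.38 and Rnf145 at -0.26 and the factor Sp1 at -0.26. In the isoprenoid branch 2 of 15 rose, the prenyltransferase subunits Rabggtb (0.38) and Fnta (0.19), and 0 fell; this share of the list, 13.3%, was that of all genes. Of 4 further cholesterol genes, the thiolase Acat1 fell (-0.24, limma adjusted p = 0.0484). With median centring limma called 0 of the 11, 0 of the 15 and 0 of the 4 genes, with 7, 8 and 1 at an unadjusted p under 0.05, and Rnf145 (0.39) and Acat1 (0.32) were above 0. With siFoxO6-2 alone, where 8.79% of all genes were called, the fatty acid list had 4 rises and 2 falls, the uptake list 3 and 1, and the isoprenoid list 3 and 1. Of the SREBP processing and further cholesterol lists limma called 0 of 11 and 0 of 4, with 8 and 1 at an unadjusted p under 0.05. With siFoxO6-3 alone, where 0.901% of all genes were called, limma called 1 of the 29 fatty acid genes and 0 in each other list. With median centring limma called 0 genes of the fatty acid, uptake and isoprenoid lists with siFoxO6-2, with 8, 9 and 5 at an unadjusted p under 0.05.

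Cell type markers were counted in the same way, beside the 13.3% called over all genes. Of 10 microglial markers, 5 rose and 0 fell with both siRNAs, led by Ctss (1.04, limma adjusted p = 0.00134), and their mean over the list was 0.30 to 0.48 on the siFoxO6-2 arrays and 0.13 to 0.15 on the siFoxO6-3 arrays. C1qa and P2ry12 were not above the empty spots on every array. Of 9 radial glia markers, 1 rose (Slc1a3) and 2 fell (Nes and Hes5), with list means of -0.56 to -0.03 with siFoxO6-2 and -0.32 to 0.12 with siFoxO6-3. Of 6 oligodendrocyte lineage markers 3 rose and 1 fell, and of 8 neuronal markers 2 fell. Of 10 endothelial and pericyte markers 1 rose, of 7 interneuron markers 1 fell, and none of 5 astrocyte, 5 intermediate progenitor and 4 erythroid markers was called by limma (1 intermediate progenitor marker had an unadjusted p under 0.05). With median centring limma called 2 of the 10 microglial and 1 of the 6 oligodendrocyte lineage markers and 0 of the 9 radial glia and 8 neuronal markers (2 and 4 at an unadjusted p under 0.05). Nes was then at 0.06 instead of -0.50, and Hes5 at -0.30 instead of -0.90. The part of these cell types in the lipid gene values was not tested.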

How the data were processed

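The data are 8 two-colour mouse arrays of 45220 spots (41174 gene probes, 4046 controls). Per the file headers, the authors deposited scanner intensity per spot and channel with local background, uncorrected. The extraction program is not given in the sources used here. The authors also deposited a table of log2 ratios of siRNA over reference, centred near 0 on each array, and how it was made is not given. Its values correlate with the loess log2 ratios at 0.85 to 0.97 across probes, and it served as an alternative.

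Mean intensities were corrected by normexp (offset 50) and loess-normalized within arrays, control spots at weight 0, which removes a shift shared by genes of like brightness. The siRNA pool was in Cy5 for replicates 2 and 4 and in Cy3 for replicates 1 and 3, and all ratios were turned to siRNA over scrambled. Of the probes, 34186 had 1 symbol and 6988 none. Symbols come from an old platform annotation, with current names from RefSeq. The brightest probe stood for a gene, which left 25310 tests. A probe was above the empty spots when it exceeded the 97.5th percentile of 959 empty spots in that channel.

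limma 3.58.1 in R 4.3.3 fitted a dye term and, with the sign of the dye orientation, 1 coefficient for each siRNA, on 8 arrays with 5 residual degrees of freedom. Tests were two-sided with Benjamini-Hochberg adjustment, threshold 0.05. SDs are over the 4 arrays of an siRNA and include the dye effect. The procedure was tested on simulated data, with no spread given to the reference. With both siRNAs it called 48% of true log2 changes of 0.25 and 88% of those of 0.5. For the difference between siRNAs it called 2% and 48%, so differences of the size seen among the members could often be missed. Array number and signal limit the precision.

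Values on every array are given for called members, the 6 largest differences between siRNAs and Srebf1, Srebf2, Insig1 and Scd2. Up to 3 genes with the smallest p are named per further list. Hmgcs1 and Cyp51, and the arrays named singly, were picked out after their values were seen. Members and lists were chosen with earlier results of these data known. Alternatives changed 1 choice at a time: background correction, median centring, the probe rule and a filter on dim probes, the deposited log2 values, the model (no dye term, replicate block, robust variance, array weights), the arrays used and the variance given to the reference. Same-numbered pools had correlations of deviations of 0.53, 0.22, -0.10 and -0.27, and differently numbered pools -0.47 to 0.49. So few values cannot settle whether replicate numbers pair the pools. The main model did not pair them, and the replicate block was an alternative.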

Additional observations from a re-analysis of the deposited data

Results flagged for a closer look

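In 5 of 54 groups of 4 arrays, 1 array lay apart from the other 3 by a gap above Dixon's 95% critical value, where chance gives about 1 in 20. Lss was at -0.46 on siFoxO6-3 replicate 4, where the other siFoxO6-3 arrays gave 0.04 to 0.08. Sc4mol was at -0.79 on the same array, where the others gave 0.15 to 0.23. Nsdhl was at -0.60 there, against -0.15 to -0.06. Stard4 was at 0.0013 on siFoxO6-3 replicate 3, against -0.43 to -0.36. Lss was at 0.0094 on siFoxO6-2 replicate 2, against 0.13 to 0.14, a gap that is narrow in absolute terms. The array siFoxO6-3 replicate 4, which holds 3 of these 5 values, had the lowest median siRNA signal (58.0) and held the lowest value of 9 of the 27 genes and the highest of 0.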

How the results depend on the processing

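Median centring gave 0 calls and a median over the members of 0.44 with both siRNAs, 0 and 0.49 with siFoxO6-2, and a median of 0.33 with siFoxO6-3. It turned Idi1 (0.25), Fdps (0.15), Dhcr7 (0.27), Srebf1 (0.043), Srebf2 (0.24) and Fasn (0.11) above 0 with both siRNAs, and Dhcr7 (0.14) with siFoxO6-2. Giving the reference the spread of 1 array left 0 calls with both siRNAs and 0 with siFoxO6-2, by its construction. Leaving out 1 array gave 4 to 11 calls and medians of -0.13 to -0.06 with both siRNAs, 1 to 9 calls with siFoxO6-2, 0 to 3 calls and medians of -0.18 to -0.084 with siFoxO6-3, and 0 for the difference. Array weights gave 11 calls with siFoxO6-2 and 2 with siFoxO6-3, and only that siRNA's arrays 2 and 1. Without the dye term siFoxO6-3 had 1 call. Leaving out the 3 arrays least like the others gave 11 and 5, and 14 with both siRNAs. The cause was not tested. With the replicate number as a block 8 members were called with both siRNAs (2 higher, 6 lower), 7 with siFoxO6-2, 0 with siFoxO6-3 and 0 for the difference; the block ended the calls of Idi1 (adjusted p = 0.0801) and Srebf2 (adjusted p = 0.0502). Counts of calls with both siRNAs under the other settings were 7 to 12. Over all genes, both siRNAs gave 3367 calls (1700 higher, 1667 lower), 473 with median centring (459 higher, 14 lower) and 6287 without those 3 arrays. In the siRNA channel, median signal over background was lowest on siFoxO6-3 replicate 4 (58.0 over 44), which limits what its values can show. In the reference channel it was lowest on siFoxO6-2 replicate 4 (66.0 over 48.5).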
